A study of Gallus gallus with 12 samples.

Results

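The T58A lines DMC4, DMC5 and DMC6 were compared with the young lines DMC8, DMC9 and DMC10, all of them retinoblastoma-like chicken cell lines made from MYCN-transformed embryonic retina and termed DMC. These 6 libraries of the 12 in the series were chosen by their labels alone, 1 library per line and 3 lines per group, and all genes were compared. All 6 lines came from White Leghorn embryos electroporated at embryonic day 3.5 (E3.5) with piggyBac vectors that integrate human MYCN together with GFP, and cells were taken from the GFP-positive regions of the retina at E14. The transgene is driven by the broadly active CAG promoter and is not limited to a cell type. The T58A lines carry MYCN T58A and had been kept for more than 200 days in culture, while the young lines carry MYCN without this change and had been kept for less than 4 weeks. The transgene variant and the time in culture therefore cannot be told apart in this comparison. The old lines DMC1, DMC2 and DMC3 carry the same transgene as the young lines and had also been kept for more than 200 days, and E14 retina without electroporation is the normal tissue. Their values are given side by side. The labels name RPMI 1640 as the medium of the lines, while the library names of DMC4 and DMC5 carry the word RPMI and that of DMC6 the word DMEM. Each line is 1 culture with 1 library. The limma p values below rest on a spread estimated over all 12 libraries, E14 retina included, and not on the lines alone.

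MYCN is a transcription factor of the MYC family that pairs with MAX and drives growth and division. Its threonine 58 is a site of phosphorylation that marks the protein for degradation, and its exchange for alanine makes the protein more stable. Retinoblastoma cells resemble developing cones, the colour-sensing photoreceptors. Cones and rods both carry a light cascade of opsin, transducin, phosphodiesterase and cyclic nucleotide-gated channel, which is shut off by opsin kinases, arrestins and RGS9, and photoreceptors are known for a high rate of aerobic glycolysis.

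Reads per library ranged from 20984957 in DMC4 to 35088450 in DMC9. Values below are normalized counts, which are reads scaled to a common library size with the TMM factor of each library, and fold changes are on the scale of log2(normalized count + 1). The level of human MYCN (hMYCN) was 196370 in DMC4, 61789 in DMC5 and 200360 in DMC6, against 167801, 270530 and 205419 in DMC8, DMC9 and DMC10. DMC5 was below all young lines, and the other T58A lines lay within the young range. The means were 152839 ± 78877 (SD, n = 3) in T58A DMC and 214583 ± 51974 in young DMC. An exact permutation test gave a two-sided p of 0.4, where 3 lines against 3 cannot give a p under 0.1. GFP was also lowest in DMC5, with 311889, 98287 and 306644 in the T58A lines against 257055, 430521 and 314043 in the young lines (exact permutation p = 0.4). Both sequences together took 0.528% of the reads in DMC5, 1.99% in DMC6 and 2.17% in DMC4, and 1.54% to 2.22% in the young lines. The chicken gene MYCN (ENSGALG00000016462, chromosome 3) was at 354 in DMC4, 245 in DMC6 and 0 in DMC5, against 3.53 to 9.97 in young DMC and 708 to 815 in E14 retina. It did not pass the test (log2 fold change 2.77 with a standard error, SE, of 1.69, limma adjusted p = 0.309), and without DMC5 it did (5.51, adjusted p = 0.00017). MYC stood at 195, 20.3 and 658 in DMC4, DMC5 and DMC6 and at 28.3, 112 and 39.9 in the young lines (limma adjusted p = 0.367, and 0.011 without DMC5).

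DMC5 stood apart from both other T58A lines across the whole transcriptome. The distance between a pair of lines is given here as the median absolute log2 difference over the genes tested. It was 0.29 to 0.43 among the young lines, 0.61 between DMC4 and DMC6, 0.82 between DMC4 and DMC5 and 0.74 between DMC5 and DMC6. DMC5 was nearest to the old line DMC3, at 0.36, and its distances to the young lines were 0.50 to 0.55. DMC4 was 0.82 to 0.87 and DMC6 0.74 to 0.77 away from the young lines. Over all genes, the median SD between the lines of a group was 0.33 in young DMC, 0.43 in old DMC and 0.64 in T58A DMC. The T58A lines therefore differed more from each other than the young lines did. For named results whose call changed when DMC5 was left out, the value without it or the count for their list is given below.

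**Figure D1:**
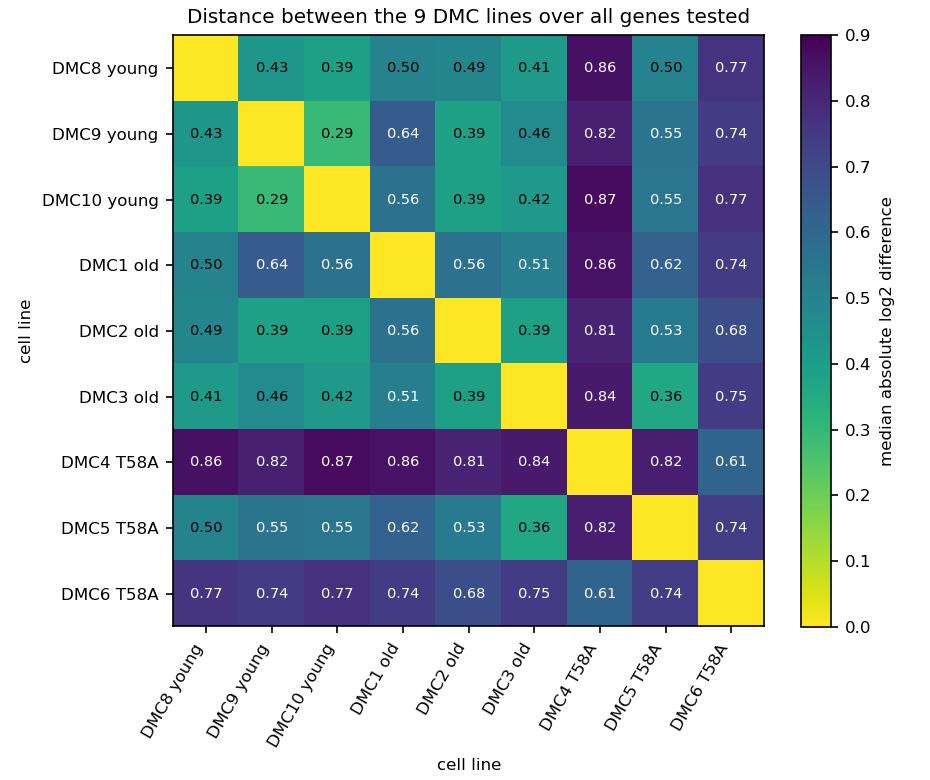
Median absolute log2 difference over the 15284 genes tested between each pair of the 9 DMC lines, with young, old and T58A DMC lines in this order on both axes and darker cells for larger distances. The cells of DMC4 and DMC6 with the young lines run from 0.74 to 0.87, while DMC5 is 0.50 to 0.55 from the young lines and 0.36 from the old line DMC3.

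The sex chromosomes also differed within the young group. Of 23 genes on chromosome W, which only hens carry, all had at least 10 reads each in DMC10 and none did in DMC8, DMC9, DMC4 or DMC6, while 2 did in DMC5. Another 2 genes assigned to W, NEDD4L and LOC100857299, had reads in lines that lacked the rest and were left out of this count. HINTW, one of these genes, was at 19204 in DMC10, 14.3 in DMC5 and 0 in the other 4 lines. Leaving out the genes on chromosome W gave 953 DE genes. The markers of other cell types were summed in each line. The pigment epithelium markers (12 genes in the table) summed to 24146 to 38798 in T58A DMC and 36207 to 67957 in young DMC, nearly all from PMEL, while TTR and MLANA were at or near 0. MITF was at 184, 216 and 2471 in DMC4, DMC5 and DMC6 against 132 to 146 in young DMC. TYR was at 145, 1.19 and 16.1 against 0 to 2.36, and DCT at 1.11, 591 and 80.4 against 141 to 1089. Of the 7 tested, 3 had a positive and 4 a negative log2 fold change, and 0 were called. Without DMC5, TYR was upregulated (5.06, limma adjusted p = 0.0026) and DCT downregulated (-4.96, limma adjusted p = 0.025). They were the 1 rise and 1 fall of this list in that fit, where 10.4% and 12.2% of all genes were called up and down. The fibroblast and mesenchyme markers (18 genes) summed to 1478 to 3194 in T58A DMC and 1609 to 2115 in young DMC. LUM and TWIST2 were at 0 in all 6 lines. ACTA2, FAP and FN1 were higher in DMC4 and DMC6 than in all young lines, while COL6A1 and COL1A2 were lower. The blood, immune and endothelial markers (16 genes) summed to 1839 to 2561 and 2337 to 2804, with HBA1, C1QB, C1QC and LY86 at 0 in the 3 T58A lines. These genes were also low in young DMC, with C1QB at 0 in DMC9 and DMC10 and LY86 at 0 in DMC9. CD74 was at 282, 1719 and 1679 in DMC4, DMC5 and DMC6 against 995 to 1834. PECAM1 was at 1263, 342 and 459 against 432 to 698, and TEK at 142, 69.3 and 218 against 48.8 to 130. Of the 13 tested, 2 had a positive and 11 a negative log2 fold change. The part of these cells in the results was not tested.

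A gene was called DE where its limma adjusted p did not exceed 0.05 and its level changed at least by 1 on the log2 scale. By these criteria 943 genes, or 6.17% of the 15284 tested, were DE between T58A and young DMC cells. Of these, 345 (2.26% of genes tested) were upregulated and 598 (3.91%) downregulated in T58A DMC, and 4147 genes had an unadjusted p under 0.05. Over all genes the log2 fold change had a median of -0.043. With library totals and no TMM factors the split was 466 upregulated and 470 downregulated, with a median over all genes of 0.14. Among the DE genes 931 (98.7%) had T58A and young lines that did not overlap, against 24.2% of all genes tested. For 123 DE genes the 3 lines of 1 group held at most 3 reads each, and their fitted fold changes depend on the pseudocount of 1.

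How many genes were called depended strongly on which lines entered. The spread was estimated over all 12 libraries, and E14 retina varied least (median SD 0.17). Fitting the 9 DMC lines without E14 retina gave 71 DE genes (0.465%), 20 up and 51 down, all 71 of them among the 943. Fitting the 6 libraries compared gave 0 DE genes with limma, with 2776 genes at an unadjusted p under 0.05 and a smallest adjusted p of 0.0678. Without DMC5 there were 3468 DE genes (22.7%), 1596 up and 1872 down, of which 929 were among the 943. The count was 324 without DMC8, 261 without DMC9, 121 without DMC10, 501 without DMC4 and 451 without DMC6. Of the 101 DE genes named by a fixed rule, 24 were called without each of the 6 lines in turn and 18 in the fit of the 9 lines. All 101 were called without DMC5, and 50 without DMC8, 42 without DMC9, 25 without DMC10, 52 without DMC4 and 49 without DMC6. DMC5 was the T58A line nearest to young DMC in 270 of the 345 upregulated genes (78.3%) and in 341 of the 598 downregulated genes (57.0%).

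The old lines, fitted in the same model, give each gene a second value. Old DMC differed from young DMC in 30 genes (0.196%), 9 up (0.0589%) and 21 down (0.137%). T58A DMC differed from old DMC in 6 genes (0.0393%), 5 up (0.0327%) and 1 down (0.00654%). In both contrasts the study, with its own count test and the same thresholds, reported more DE genes, so these low counts hold for this fit only. The count between T58A and old DMC misses genes of chromosome W that separate the groups fully. HINTW was at 16533 to 35726 in old DMC and at 0 to 14.3 in T58A DMC, but was not called (limma adjusted p = 0.129). Young DMC and E14 retina each hold libraries with and without HINTW reads, and their spread enters the fit (SE 4.00). For the 345 genes upregulated in T58A DMC the median difference from the young mean was 2.54 in DMC4, 1.42 in DMC5 and 2.50 in DMC6, and 0.77 to 0.87 in the old lines. For the 598 downregulated genes it was -2.51, -1.82 and -2.32 in the T58A lines and -0.87 to -0.82 in the old lines. The old lines thus had values between those of young and T58A DMC at the median of both groups of genes. The genes were chosen for their difference between T58A and young DMC, so the middle place of the old lines can come from this choice. These differences also use the same young lines, and no test of their likeness was made.

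The largest fall was that of EXFABP (ENSGALG00000043064, chromosome 17), an extracellular fatty acid-binding lipocalin. It had 0 reads in all 3 T58A lines and stood at 425, 2402 and 2532 in DMC8, DMC9 and DMC10, which is at least 517-fold lower in T58A DMC when 3 reads per line are taken as the limit (limma adjusted p = 0.00986). It was also at 0 in the old line DMC1 and at 336 and 5.63 in DMC2 and DMC3. GPAT2 (ENSGALG00000040899, chromosome 22), a mitochondrial glycerol-3-phosphate acyltransferase, was at 0, 0 and 2.30 in the T58A lines against 132, 102 and 172 in the young lines, and at 0.939 to 4.81 in the old lines. GPAT2 fell by 6.48 on the log2 scale (SE 0.61, limma adjusted p = 0.00112) and was called without each line in turn. It was called between old and young DMC as well (adjusted p = 0.00808). The young lines and the E14 retina, at 253 to 364, were on 1 side and all 6 lines of long culture on the other.

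The other 10 of the 12 largest falls include CA9, KCNV2, GUCA1A and HES5, described below with their pathways. MYL1 and TNNI2, a light chain of myosin and a troponin of fast skeletal muscle, had log2 fold changes of -6.15 and -6.06 (limma adjusted p = 0.00971 and 0.00402). TNNI2 was at 0 to 3.34 in T58A DMC and 120 to 235 in young DMC, and MYL1 at 0 to 3.34 and 68.3 to 259. The olfactory receptor family genes OR51E2 and OR52L1 had log2 fold changes of -5.84 and -5.81 (limma adjusted p = 0.00819 and 0.00507), from 623 to 995 in young DMC to 3.45 to 72.9 in T58A DMC for OR51E2. Both had 0 reads in all E14 retinas. They belong to a large family of similar genes, so reads may be divided between copies. LPAR4, a receptor for lysophosphatidic acid, was at 13.4, 49.0 and 0 against 409, 840 and 946 (log2 fold change -6.26, limma adjusted p = 0.0185). CFTR, a chloride channel, was at 1.11 in DMC4 and 5.74 in DMC6 but at 449 in DMC5, next to the 572 of DMC9, and its call (limma adjusted p = 0.0462) held in 1 of 6 fits that left out a line. Without DMC5 its adjusted p was 0.0003.

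**Figure D2:**
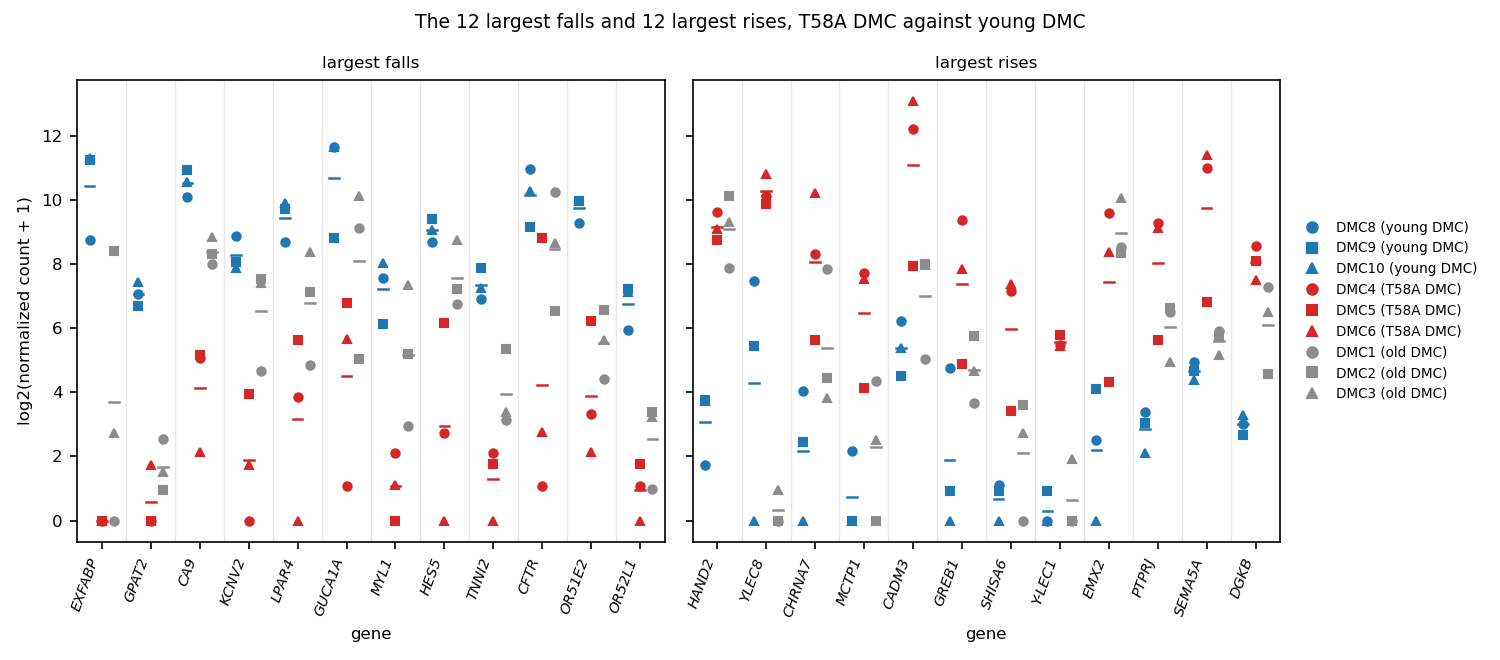
Log2 of the normalized count plus 1 for the 12 largest falls and the 12 largest rises of T58A DMC against young DMC, with 1 point per line (blue, young; red, T58A; grey, old) and a bar at the mean of each group. Genes with overlapping groups were not eligible, so the gap between red and blue points was set by the choice of genes, and the red square of DMC5 is the point nearest to the young lines for CFTR, EMX2, CADM3 and SEMA5A.

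Among genes with a symbol and no overlap between the groups, the largest rise was that of HAND2 (ENSGALG00000030530, chromosome 4), a bHLH transcription factor of heart, limb and sympathetic neurons. HAND2 was at 782, 429 and 547 in DMC4, DMC5 and DMC6 against 2.36, 12.6 and 12.2 in the young lines, a rise of 6.08 (SE 0.71, limma adjusted p = 0.00339) that was called without each line in turn. The old lines were at 233, 1114 and 637, the rise from young to old DMC was called (6.03, adjusted p = 0.00808), and the difference between T58A and old DMC was 0.049 (adjusted p = 0.98). All 6 lines of long culture thus held HAND2 reads at a level that no young line or E14 retina reached.

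YLEC8 and Y-LEC1, C-type lectin-like genes of the MHC-Y region, showed another order. Y-LEC1 was at 43.5, 53.8 and 42.5 in the T58A lines, 0 to 0.899 in the young lines and 0 to 2.82 in the old lines, a rise of 5.26 over young DMC (limma adjusted p = 0.00339) that was called without each line in turn. YLEC8 was at 1116, 938 and 1786 in T58A DMC, 174, 42.2 and 0 in young DMC and 0 to 0.939 in old DMC (log2 fold change 5.97, limma adjusted p = 0.0311, called in 3 of 6 fits without a line). Both were among the 5 genes upregulated against old DMC (adjusted p = 0.0231 and 0.0431). They belong to a family of near-identical copies, between which reads may be divided, so the values of a single copy are uncertain.

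In most of the other large rises DMC5 lay between the groups. CADM3, an immunoglobulin adhesion molecule, was at 4751, 245 and 8669 in DMC4, DMC5 and DMC6 against 73.0, 21.6 and 41.0 (log2 fold change 5.71, limma adjusted p = 0.02, and 7.28 without DMC5). SEMA5A, a guidance molecule, was at 2018, 111 and 2717 against 29.4, 24.3 and 19.9 (5.07, limma adjusted p = 0.0156, and 6.54 without DMC5). CHRNA7, the alpha 7 nicotinic receptor, was at 318, 49.0 and 1176 against 15.3, 4.49 and 0 (5.89, limma adjusted p = 0.0277, and 7.10 without DMC5). CADM3, SEMA5A and CHRNA7 were called in 2, 5 and 2 of 6 fits without a line. They were not called in the fit of the 9 lines (limma adjusted p = 0.0886, 0.0756 and 0.101). PTPRJ, a receptor tyrosine phosphatase, rose by 5.18, the calcium-binding membrane protein MCTP1 by 5.74, the AMPA receptor partner SHISA6 by 5.29 and GREB1, an oestrogen-regulated gene, by 5.47 (limma adjusted p = 0.0108 to 0.0303). DGKB, a diacylglycerol kinase, rose in a more even way, at 378, 270 and 181 against 5.39 to 8.87 (5.06, limma adjusted p = 0.00507), and was called without each line in turn.

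Of the cone and rod phototransduction genes, 8 were called between T58A and young DMC, all of them downregulated. All 18 cone phototransduction genes tested had a negative log2 fold change, with a median of -2.44, and 5 were downregulated and 0 upregulated. That is 27.8% of the list, where 6.17% of all genes were DE. The 5 called genes were ARR3, GUCA1A, GUCA1B, RD3 and RGS9. The list thus also holds genes that rods use, such as RGS9, and is not limited to cones. In bulk RNA, fewer cells of a type and less RNA per cell cannot be told apart. Of 7 rod phototransduction genes 3 were downregulated, and of 21 outer segment and visual cycle genes 4 were, with 0 upregulated in both lists and medians of -0.15 and -1.75. The log2 fold change was positive in 3 of the 7 rod genes. In DMC5 3 of the 18 cone genes (16.7%) were above all young lines and 10 (55.6%) were below. Of all genes tested, 33.2% in DMC5 were above and 31.3% below. Without DMC5, 10, 3 and 13 genes of these lists were downregulated, where 12.2% of all genes were. The median difference of the cone genes from the young mean was -4.18 in DMC4, -2.72 in DMC6 and -1.16 in DMC5, against -1.08 to -0.039 in the old lines.

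ARR3 (ENSGALG00000004251, chromosome 4), the cone arrestin that ends the signal of an opsin, was at 349, 136 and 150 in DMC4, DMC5 and DMC6. The young lines held 9617, 6817 and 10123, so that all T58A lines were far below all young lines. ARR3 fell by 5.49 (SE 0.50, limma adjusted p = 0.00112) and was called without each line in turn and in the fit of the 9 lines. Between the groups stood the old lines, at 1009 to 1930. PDE6B (ENSGALG00000015373, chromosome Z), a catalytic subunit of the rod phosphodiesterase in mammals, was at 99.2, 1526 and 384 against 10751, 23728 and 21098. It also fell by 5.49 (SE 0.81, limma adjusted p = 0.00686). Its old lines overlapped the young range in DMC3, at 15685, and stood at 4142 and 5390 in DMC1 and DMC2.

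The guanylate cyclase activators GUCA1A and GUCA1B, calcium sensors that restore cyclic GMP after light, had log2 fold changes of -6.19 and -5.18 (limma adjusted p = 0.0382 and 0.0175). GUCA1A was at 1.11, 109 and 49.4 against 3204, 443 and 3185, so that the lowest young line, DMC9, stood about 4 times above DMC5, and GUCA1A was called in 1 of 6 fits without a line. RD3, which holds the cyclase inactive on its way to the outer segment, fell by 2.76 (limma adjusted p = 0.0222). RGS9, which shuts off transducin, fell least but most evenly, with 1338, 1330 and 1628 against 3714, 4171 and 4451 (log2 fold change -1.52, SE 0.23, limma adjusted p = 0.00819). GRK1, a kinase of opsins, was at 0, 9.56 and 8.04 against 64.7 to 111 (-4.24, limma adjusted p = 0.016). The rod transducin GNAT1 was at 0 in all T58A lines and at 4.43 to 16.5 in young DMC, at least 2.45-fold lower.

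In the outer segment list, STRA6, a receptor that takes up retinol, was at 30.1, 5.97 and 41.3 against 348 to 417 (log2 fold change -4.22, limma adjusted p = 0.0107). The old lines were at 7.70 to 35.7, and STRA6 was also called between old and young DMC (adjusted p = 0.0463). The retinoid flippase ABCA4, at 121, 915 and 241 against 2502 to 4973, and the matrix proteoglycan IMPG1, at 140, 531 and 529 against 1867 to 8102, had log2 fold changes of -3.65 and -3.86 (limma adjusted p = 0.0122 and 0.0208). AIPL1, a chaperone of phosphodiesterase, was at 148, 317 and 170 against 1078 to 1923, and fell by 2.87 (limma adjusted p = 0.00306). Both AIPL1 and STRA6 were called without each line in turn, in fits that all keep E14 retina. In the fit of the 9 lines AIPL1 was called (limma adjusted p = 0.0363) and STRA6 was not (0.0686). AIPL1 was also called between old and young DMC (limma adjusted p = 0.0463).

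The factors that specify cones, RXRG and THRB, did not pass the test, and DMC5 was above all young lines in both. RXRG, a retinoid receptor of cone precursors, was at 1710 in DMC4 and 1312 in DMC6 but at 31908 in DMC5, above the 24603 to 25030 of young DMC. THRB, the thyroid hormone receptor of red and green cones, was at 430, 7572 and 370 against 3398 to 6543. Their limma adjusted p were 0.0955 and 0.173, and 2.9e-05 and 0.00021 without DMC5. The cone transducin GNAT2 was at 1.11, 498 and 25.3 against 808 to 1875, and it missed the threshold with all lines (log2 fold change -5.21, limma adjusted p = 0.0536) and passed it without DMC5 (0.00074). Of 23 photoreceptor transcription factors, 1 was called (4.35% against 6.17% of all genes), the homeobox gene RAX (-2.63, limma adjusted p = 0.0306). Without DMC5, 11 were downregulated and 1 upregulated, against 12.2% and 10.4% of all genes. Set beside the label of retinoblastoma cells, a tumour of cone precursors, all 6 lines held RXRG and THRB at 370 normalized counts or more. E14 retina held RXRG at 8824 to 11857 and THRB at 946 to 993. DMC4 and DMC6 were below these levels in both genes, and DMC5 and the young lines were above them. The cascade genes GNAT2, GUCA1A and GUCA1B were at 1.11 to 49.4 in DMC4 and DMC6.

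**Figure D3:**
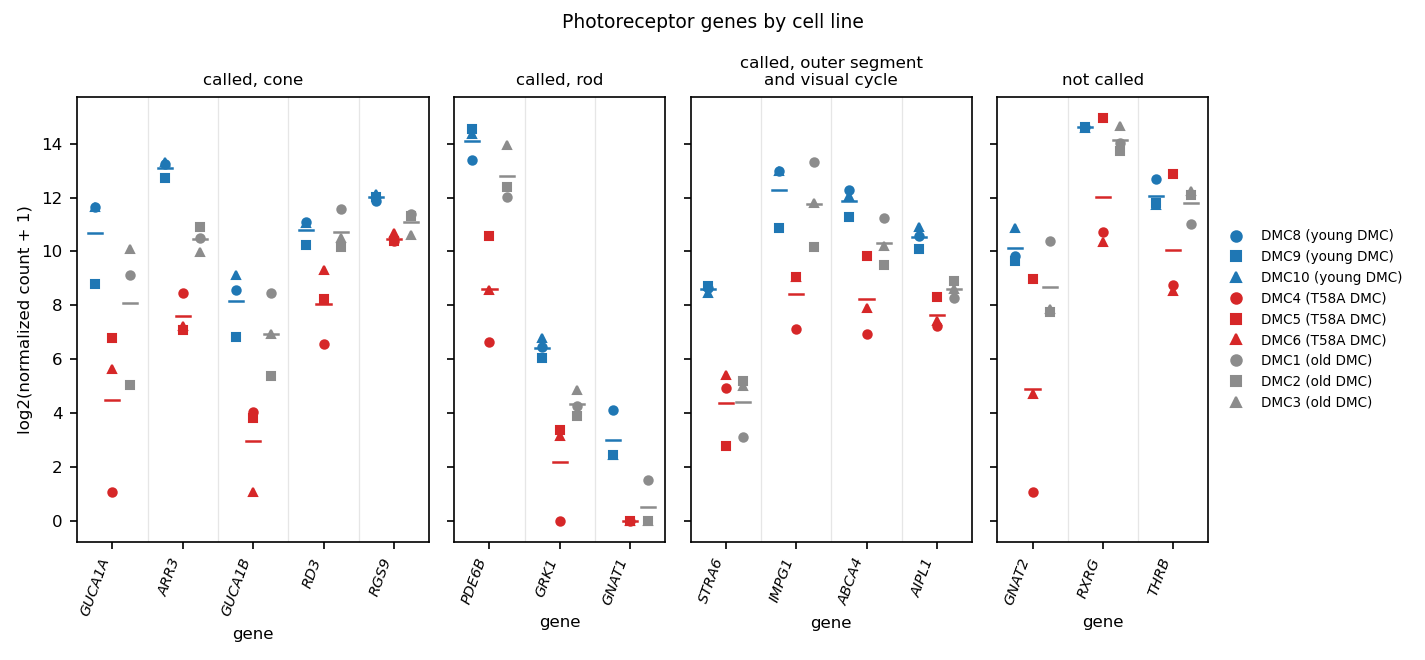
Log2 of the normalized count plus 1 of the photoreceptor genes called between T58A and young DMC, by list, and of GNAT2, RXRG and THRB, which were not called, with 1 point per line and a bar at each group mean. All red points are below all blue points in the called genes, while for RXRG and THRB the red square of DMC5 lies above the young lines, at 31908 and 7572 normalized counts.

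Among genes of glycolysis, the falls were shared by all 3 T58A lines. Of 21 tested, 7 were downregulated and 1 upregulated (38.1% against 6.17% of all genes), with a median log2 fold change of -1.14. In the fit of the 9 lines, which leaves out E14 retina, 0 were downregulated and 1, PFKM, was upregulated. In that fit 0.465% of all genes were called. The median difference from the young mean was -1.38 in DMC4, -0.84 in DMC5 and -0.95 in DMC6, and 15, 15 and 16 of the 21 genes in these lines were below all 3 young lines, where 38.8%, 31.3% and 38.3% of all genes tested were. The old lines were at -0.74, 0.064 and -0.71. LDHA (ENSGALG00000006300, chromosome 5), the lactate dehydrogenase that makes lactate from pyruvate, was at 6373, 13214 and 4002 against 65265, 90910 and 106180. It fell by 3.62 (SE 0.77, limma adjusted p = 0.0228) and was called in 1 of 6 fits without a line, that without DMC5. Its old lines ranged from 3840 in DMC1 to 52578 in DMC2.

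The enolase ENO1 was at 44180, 158580 and 58120 against 266390, 305580 and 366751, and the mutase PGAM1 at 50196, 63043 and 28504 against 92910, 172198 and 205358, with log2 fold changes of -2.07 and -1.73 (limma adjusted p = 0.026 and 0.031). The aldolase ALDOC fell by 1.15, the isomerase GPI fell by 1.19 and PDK4, a kinase that closes the entry of pyruvate into the citric acid cycle, fell by 1.80 (limma adjusted p = 0.025, 0.0354 and 0.01). PDK4 alone among the falls of this list that are named here was called without each line in turn, at 1373, 2741 and 1367 against 4989, 8250 and 5333. It was not called in the fit of the 9 lines (limma adjusted p = 0.0578). PFKM, the muscle form of phosphofructokinase, rose to 1424, 1264 and 1318 from 503, 319 and 464 (log2 fold change 1.66, SE 0.26, limma adjusted p = 0.00928) and was called without each line in turn. ENO1, PGAM1 and ALDOC, with the actin ACTG1 and the nucleotide carrier SLC25A6, were the downregulated genes of highest level. ACTG1 was at 31807, 96496 and 30284 against 106443 to 162719 and fell by 1.61, and SLC25A6 fell by 2.24 (limma adjusted p = 0.0411 and 0.0177).

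Hypoxia genes overlap in function with glycolysis, and 4 of 16 were downregulated and 0 upregulated, with a median of -0.79. That is 25% of the list, where 6.17% of all genes were DE. CA9 (ENSGALG00000021340, chromosome Z), a carbonic anhydrase used as a marker of hypoxia, was at 32.3, 34.7 and 3.45 against 1076, 1933 and 1511. No T58A line came near a young line, and CA9 fell by 6.40 (SE 0.68, limma adjusted p = 0.00237) and was called without each line in turn. Old DMC stood at 255, 319 and 456 and E14 retina at 75.7 to 124. EGLN3, an oxygen-dependent prolyl hydroxylase, was at 15.6, 20.3 and 18.4 against 252, 472 and 448 (-4.31, limma adjusted p = 0.0248), while its old lines ran from 6.74 to 239. Its call held in 1 of 6 fits without a line. NDRG1 and BNIP3L, a stress-induced gene and a mitophagy receptor, had log2 fold changes of -1.82 and -1.42 (limma adjusted p = 0.0421 and 0.026), and the 4184 of DMC6 for NDRG1 overlapped the 3784 of DMC9.

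**Figure D4:**
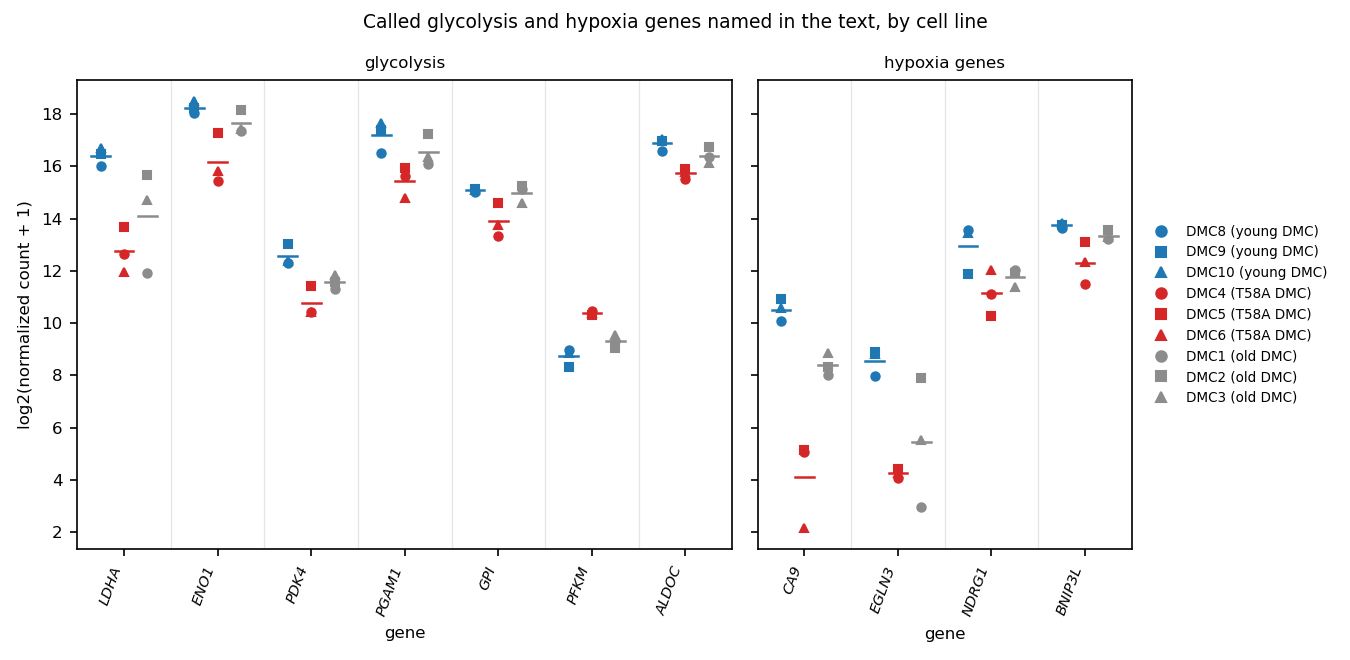
Log2 of the normalized count plus 1 of 7 of the 8 glycolysis genes called and of the 4 hypoxia genes called, with 1 point per line and a bar at each group mean (ENO2, the other called glycolysis gene, is not drawn). Red points are below blue points for all falls but NDRG1, and above them for PFKM, where the T58A lines sit between 1264 and 1424.

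Proliferation genes split the T58A lines. None of 38 was called with all lines (median -0.93). Without DMC5, 28 of the 38 were downregulated and 0 upregulated, where 12.2% of all 15284 genes were downregulated. The median difference from the young mean was -2.08 in DMC4 and -1.24 in DMC6 but 0.40 in DMC5. In DMC4 35 and in DMC6 34 of the 38 genes were below all young lines, while in DMC5 28 were above all young lines and 1 was below. Of all genes tested, 38.8% in DMC4 and 38.3% in DMC6 were below all young lines, and in DMC5 33.2% were above and 31.3% below. MCM5, a subunit of the replicative helicase, was at 363, 4402 and 548 against 3241 to 3477, and MKI67, the gene of the Ki-67 antigen, at 3261, 13126 and 3348 against 6371 to 10046. PCNA, the sliding clamp of replication, was at 1319, 13422 and 2331 against 5332 to 6975. Their limma adjusted p were 0.131, 0.395 and 0.444 with all lines and 0.00031, 0.025 and 0.0026 without DMC5.

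Cholesterol synthesis genes split the lines in the same way. None of 21 was called (median -0.99), and 16 were downregulated without DMC5, against 12.2% of all genes. The median was -1.89 in DMC4, -1.54 in DMC6 and 0.45 in DMC5. MSMO1, a sterol oxidase, was at 1020, 9473 and 1046 against 7250 to 9617, and INSIG1, the sterol sensor that holds back the pathway, at 1172, 11994 and 1630 against 6501 to 12432 (limma adjusted p = 0.0927 and 0.156, and 3.9e-05 and 0.0013 without DMC5). Respiratory chain genes, 73 in all with 0 called, stood at -0.30 in DMC4, -0.45 in DMC6 and 0.32 in DMC5, and 42, 52 and 5 of them in these lines were below all young lines, against 38.8%, 38.3% and 31.3% of all genes. Cytosolic ribosomal proteins had a median of -0.40 over 71 genes, with only RPL22L1 called (-1.33, limma adjusted p = 0.0309). Mitochondrial ribosomal proteins had a median of 0.016 over 71 genes, with MRPL12 up and MRPS12 and MRPL13 down. The shares called were 1.41% and 4.23%, both below the 6.17% of all genes.

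The cell cycle regulators of the E2F and RB families were not called. E2F1, which turns on the genes of S phase, was at 908, 7201 and 2484 against 3151 to 4965 (log2 fold change -0.73, limma adjusted p = 0.484), and the direction turned to 0.010 without DMC4. E2F3 was at 641 to 999 against 713 to 843 (log2 fold change -0.030), and its sign changed with the scaling. RB1, the retinoblastoma gene, was at 1082, 1948 and 1728 against 1338 to 1466 (0.14, limma adjusted p = 0.68), and at -0.047 in the deposited values as they stand. Of 12 E2F and RB genes, 24 CDK inhibitor and p53 genes, 25 genes of the MYC network and 17 Myc-regulated cell cycle genes, none was called. Without DMC5, 2, 4, 5 and 6 of these lists were, where 22.7% of all genes were called. CDKN1A, which encodes p21, was at 1263, 139 and 268 against 1120 to 1489, and CDKN2A at 730, 19.1 and 181 against 103 to 759 (limma adjusted p = 0.338 and 0.61). SESN2, a p53- and ATF4-induced stress gene, was at 4892, 274 and 5462 against 55.4 to 619, and the death receptor FAS at 456, 10.8 and 122 against 9.42 to 10.8 (limma adjusted p = 0.106 and 0.131, and 0.0049 and 0.0059 without DMC5). Among 19 apoptosis genes 2 were called (10.5% against 6.17% of all genes). The effector BAK1 was upregulated (1.51, limma adjusted p = 0.0225), at 1673, 746 and 1147 against 270 to 501. BMF, which frees such effectors, was downregulated (-1.74, SE 0.27, limma adjusted p = 0.00846), at 304, 558 and 314 against 1118 to 1419, and was called without each line in turn.

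Genes of the amino acid response and of endoplasmic reticulum stress had 1 call among 23. That gene was upregulated (4.35% of the list against 6.17% of all genes), with a median of 0.49 over the list. Without DMC5, 9 were upregulated and 2 downregulated, where 10.4% of all genes were upregulated and 12.2% downregulated. The median was 0.93 in DMC4, 1.69 in DMC6 and 0.030 in DMC5. In DMC4 13 genes (56.5%) were above and 7 (30.4%) below all young lines, where 37.1% and 38.8% of all genes tested were. In DMC6 17 (73.9%) were above and 5 (21.7%) below, where 35.8% and 38.3% of all genes tested were. PSAT1, an enzyme of serine synthesis, was at 9618, 4699 and 19858 against 1287, 2274 and 1528, a rise of 2.55 (SE 0.44, limma adjusted p = 0.0122) that kept its call in 5 of 6 fits without a line. PSPH, the last enzyme of serine synthesis, was at 4489, 583 and 27455 against 161 to 762 and was not called (limma adjusted p = 0.0725, and 0.0017 without DMC5). The upregulated genes of highest level were AARS and YARS, which load transfer RNA with alanine and tyrosine, the amino acid transporter SLC38A2, the glycine transporter SLC6A9 and the secreted glycoprotein OLFM1. AARS was at 22402, 12044 and 18278 against 6897 to 7613 (1.23, limma adjusted p = 0.0156), YARS at 18526, 7375 and 25962 against 4047 to 5847 (1.59, 0.0311) and SLC38A2 at 13802, 10508 and 23910 against 4762 to 7796 (1.23, 0.0458). In ribosome biogenesis and nucleotide synthesis, 2 of 37 genes were called (5.41% against 6.17% of all genes). They were ATIC and MTHFD1 of the purine and folate pathways, with log2 fold changes of -1.21 and -1.34 (limma adjusted p = 0.0398 and 0.0277).

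Both chains of the common type IV collagen rose. Of 75 collagens, laminins, integrins and other matrix genes 6 were upregulated and 4 downregulated (13.3% against 6.17%). COL4A1 (ENSGALG00000036798, chromosome 1), a chain of the collagen of basement membranes, was at 925, 300 and 2285 against 31.8, 34.1 and 19.9, and COL4A2, its partner chain, at 1964, 747 and 3137 against 97.8, 106 and 74.3. They rose by 4.90 and 4.17 (SE 0.67 and 0.52, limma adjusted p = 0.00618 and 0.00507), and both were called without each line in turn and in the fit of the 9 lines. The old lines were at 110 to 232 and 398 to 814, above all young lines in both genes. NID1, which links laminin to type IV collagen, was at 114, 14.3 and 172 against 2.36 to 7.19 (3.77, limma adjusted p = 0.023) and FBN2, a microfibril protein, at 17.8, 4.78 and 45.9 against 0 to 1.80 (3.61, limma adjusted p = 0.0254). COL6A1, COL1A2 and the brain proteoglycan NCAN had log2 fold changes of -3.55, -3.53 and -3.86 (limma adjusted p = 0.0486, 0.0309 and 0.01). They were called in 1, 2 and 5 of 6 fits without a line. COL6A1 and COL1A2 are also the 2 called genes of the 11 fibroblast and mesenchyme markers tested (18.2% against 6.17% of all genes). Of these 11, 6 had a positive log2 fold change and 5 a negative one. Without DMC5, 3 of the 11 were upregulated and 3 downregulated, where 10.4% and 12.2% of all genes were. COL3A1, another of these markers, was at 18.9, 476 and 10.3 in DMC4, DMC5 and DMC6 against 114 to 426 in young DMC. Other mesenchyme markers were higher in DMC4 and DMC6. The smooth muscle actin ACTA2 was at 366, 0 and 286 in DMC4, DMC5 and DMC6 against 4.43 to 13.5 in young DMC, the fibroblast protease FAP at 98.1, 0 and 94.2 against 0 to 2.36, and fibronectin, FN1, at 1640, 730 and 1686 against 245 to 820. Their part in the rise of the collagens was not tested.

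Of 66 axon guidance genes 5 were upregulated and 2 downregulated (10.6% against 6.17% of all genes). ROBO1 (ENSGALG00000015511, chromosome 1), a receptor for Slit proteins, was at 1569, 1153 and 1588 against 184, 63.8 and 136. All 3 T58A lines were far above all young lines, and the rise of 3.59 (SE 0.39, limma adjusted p = 0.00237) was called without each line in turn. Old DMC ranged from 160 to 381 and E14 retina at 4556 to 5236. NRCAM, PLXND1 and SEMA3D, an adhesion molecule, a plexin and a semaphorin, rose by 2.65, 2.74 and 3.39 (limma adjusted p = 0.0345, 0.026 and 0.0379) and were called in 1 of 6 fits without a line, that without DMC5. EPHA8 fell by 1.83 (limma adjusted p = 0.0465). The Wnt, BMP and FGF lists held 1 to 3 called genes each, 2.33% to 5.26% of the list against 6.17% of all genes. Among them were the Wnt co-receptor LRP6 (1.34), the BMP decoy receptor BAMBI (2.80) and FGF14 (4.91), all upregulated. FSTL5, NRG4 and IGFBP3 were downregulated. FGF14 was at 276, 31.1 and 133 against 1.18 to 4.43 (limma adjusted p = 0.00986). Without DMC5, 17 of 57 FGF, EGF and PDGF genes were upregulated and 5 downregulated, where 10.4% and 12.2% of all genes were.

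Neuronal receptors and channels changed in both directions. Of 79 neurotransmitter receptors 7 were upregulated and 8 downregulated (19.0% against 6.17%), and of 128 ion channels 3 and 10 (10.2%). GRIN3A, an NMDA receptor subunit, was at 2023, 145 and 1694 against 41.0 to 73.7, and HTR1B, a serotonin receptor, at 15.6, 8.36 and 188 against 0 to 3.32 (log2 fold changes 3.82 and 3.94, limma adjusted p = 0.0421 and 0.04). Both were called in 1 of 6 fits without a line, that without DMC5. Neither was called in the fit of the 9 lines (limma adjusted p = 0.125 and 0.117). GRIK1 (ENSGALG00000015835, chromosome 1), a kainate receptor subunit of OFF bipolar cells, was at 314, 499 and 1029 against 5406, 6335 and 10083. It fell by 3.68 (SE 0.51, limma adjusted p = 0.00618) and was called without each line in turn. GRM8 and GLRA3, a metabotropic glutamate and a glycine receptor, had log2 fold changes of -4.96 and -4.32 (limma adjusted p = 0.0208 and 0.0178). KCNV2, a potassium channel subunit of photoreceptors, was at 0, 14.3 and 2.30 against 236 to 463 and fell by 6.39 (limma adjusted p = 0.0069). The potassium channel subunit KCNMB2 fell, while the calcium channel CACNA1E and the chloride channel CLCN1 rose (limma adjusted p = 0.0356, 0.0241 and 0.0445). CLCN1 held at most 4 reads in each young line and was called in 1 of 6 fits without a line.

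The share of called genes among markers of other retinal cells was 5.56% for ganglion cells and 10.5% for amacrine and horizontal cells. It was 12.5% for bipolar cells and 5.88% for progenitors and Muller glia, where 6.17% of all genes were called. Of 8 bipolar cell markers 1 was called, GRIK1, which fell as described above. Of 18 ganglion cell markers 1 was upregulated, the RNA-binding protein ELAVL4, at 4858, 985 and 4266 against 477 to 923 (1.96, limma adjusted p = 0.0379, called in 1 of 6 fits without a line). Of 19 amacrine and horizontal cell markers 2 were, TFAP2C, at 46.8, 64.5 and 34.5 against 0 to 10.8 (4.04, limma adjusted p = 0.0272), and the glycine transporter SLC6A9 named above. Of 17 progenitor and Muller glia markers 1 was downregulated, the Notch effector HES5 (ENSGALG00000001141, chromosome 21). HES5 was at 5.57, 70.5 and 0 against 413, 676 and 532 and fell by 6.09 (limma adjusted p = 0.0175, 0.00017 without DMC5). It was called in 4 of 6 fits without a line and not in the fit of the 9 lines (limma adjusted p = 0.0783). Among 55 regional homeobox and T-box factors 5 were upregulated and 2 downregulated (12.7% against 6.17% of all genes). EMX2, a factor of the dorsal forebrain, was at 762, 19.1 and 332 against 0 to 16.2 (5.22, limma adjusted p = 0.0348, and 6.77 with 0.0012 without DMC5), so that DMC5 was next to DMC9. EMX2 was called in 1 of 6 fits without a line, that without DMC5, and not in the fit of the 9 lines (limma adjusted p = 0.110). In old DMC EMX2 was at 324 to 1058. IRX3, at 71.3, 102 and 725 against 5.89 to 19.9, rose by 3.69 (limma adjusted p = 0.0246), and its old lines were at 261 to 611, with a call between old and young DMC (adjusted p = 0.0409). LHX6, of ventral forebrain interneurons, was at 73.6, 27.5 and 37.9 against 3.59 to 5.89 and at 0.939 to 6.74 in the old lines (2.97, limma adjusted p = 0.0197). FOXD1, of the temporal retina, was at 3.34, 15.5 and 55.1 with 0 in all young lines (limma adjusted p = 0.0352). Its mean was at least 7.75-fold higher, but DMC4 held only 3 reads, which is the limit itself. FOXD1 was called in 2 of 6 fits without a line. PAX3 fell by 3.30 (limma adjusted p = 0.0183). Of the blood and immune markers, C1QA and C1QC, chains of complement that microglia make, were at 0 to 1.19 in the T58A lines. In the young lines they were at 13.3 to 30.6 and 1.80 to 11.8 (limma adjusted p = 0.01 and 0.0469). The mean of C1QC was at least 1.52-fold lower, but DMC9 and DMC10 held 2 reads each, under the limit of 3. C1QC was called in 1 of 6 fits without a line. All interferon and antigen presentation genes, 23 in number, and all 27 genes of telomeres and chromatin stayed uncalled.

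**Figure D5:**
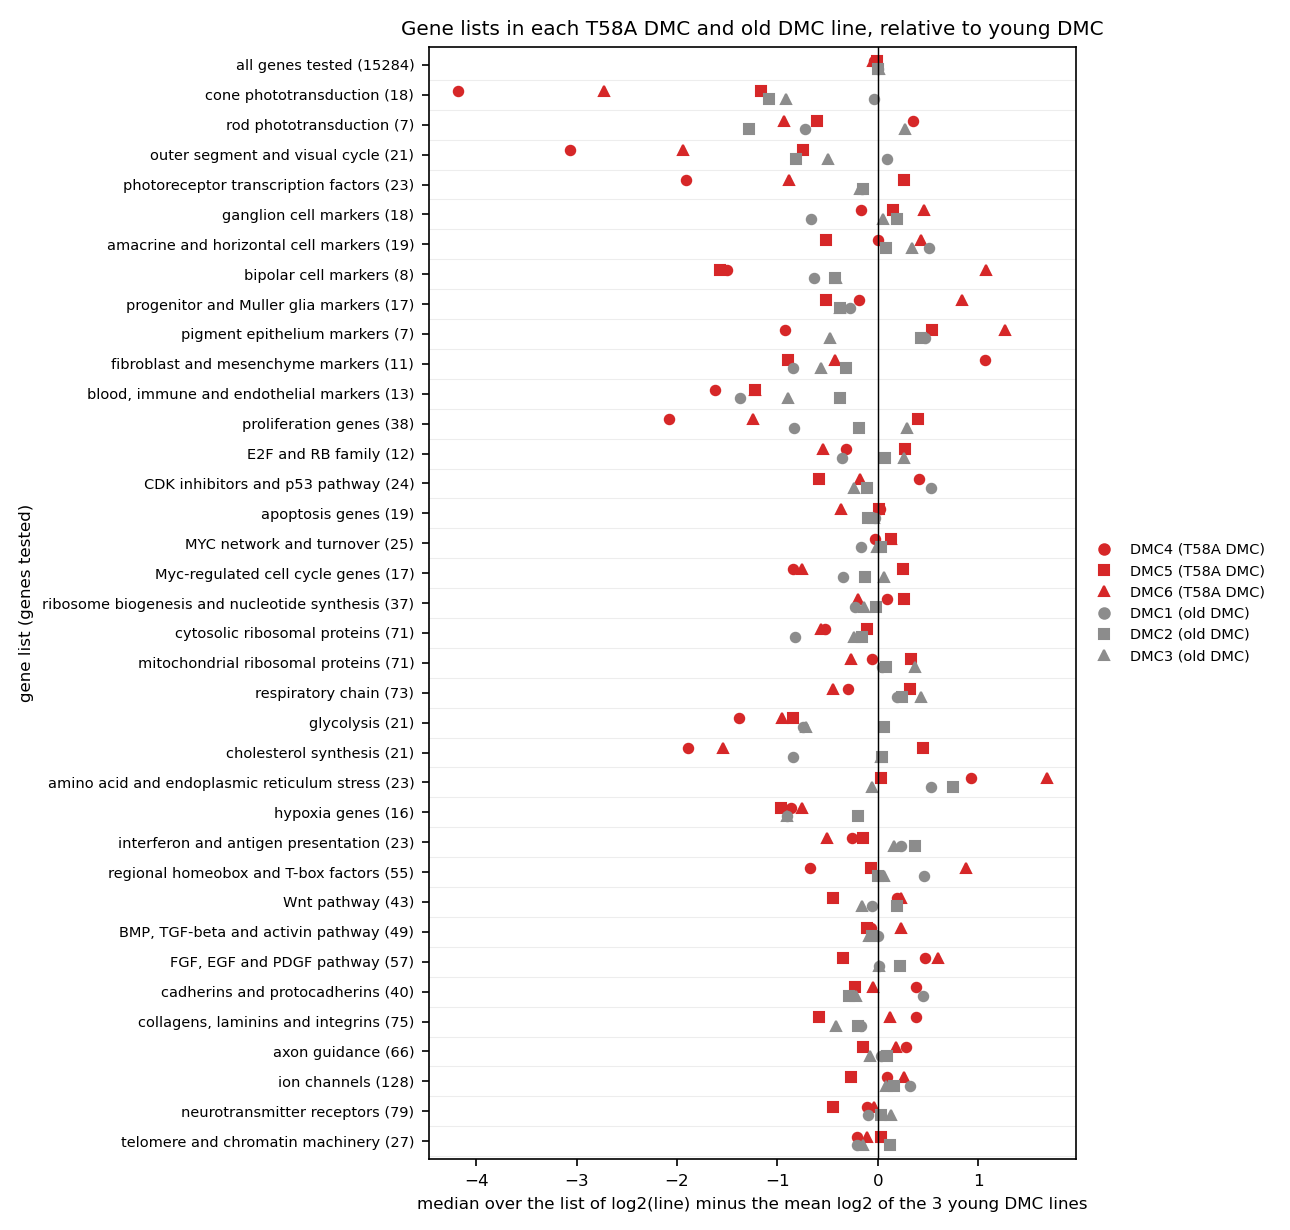
Median over each gene list of the log2 difference between 1 line and the mean of the 3 young lines, with T58A lines in red and old lines in grey and the number of genes tested in brackets. The cone genes are the lowest list in DMC4 (-4.18) and DMC6 (-2.72) but not in DMC5 (-1.16, where the bipolar cell markers stand at -1.57), and in the proliferation and cholesterol lists the red square of DMC5 (0.40 and 0.45) lies on the other side of 0 from DMC4 and DMC6.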

How the data were processed

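The authors counted read pairs per gene with featureCounts 2.0.0 (galGal6) and deposited signal values, which are counts divided by TMM factors from edgeR. All 205632 values above 0 are whole numbers (within 0.001) over 1 of 12 constants, the TMM factors (0.842 to 1.20), and for 8.36% of them the constant belongs to that library. Reads were therefore recovered and rescaled by library total and own factor, which can move a level by as much as these constants differ. As the deposited unit is signal, a log-scale test replaced the count test of the study's methods. Genes with 10 reads or more in 3 or more of all 12 libraries were fitted as log2(normalized count + 1) with limma 3.58.1 in R 4.3.3 (trend, 4 groups, Benjamini-Hochberg over 15284 genes). In simulated data 60.0% of 200 changed genes were called, with at most 6 false calls in each of 3 draws. The simulation gave all 4 groups the same dispersion for a gene, while in the data E14 retina varied least. It therefore cannot give the rate of false calls of this fit. Missing symbols, and all chromosomes, came from RefSeq (GRCg7b) for 14940 of 24358 genes.

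The comparison, the 36 gene lists and the tests were chosen with earlier results of these data known. The rule for named genes took the 12 largest changes each way (with a symbol, groups not overlapping, transgenes and chromosome W left out), the 5 called genes of highest level each way, up to 6 called members of each list or else its 2 largest changes, and a set of genes fixed by name. Some genes that this rule names are not reported here. Transgene levels were compared by exact permutation. Limits from 3 reads cover counting error only. Alternatives were other scalings, pseudocounts of 0.1 and 10, other filters, voom weights, robust eBayes, fits of the 6 libraries or 9 lines, each line left out and chromosome W left out. The fit of 5 libraries was chosen after seeing the data. Figures were made with Python 3.11.15 and matplotlib 3.10.9.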

Additional observations from a re-analysis of the deposited data

How the results depend on the processing

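No paired analysis was possible because the T58A lines (4, 5 and 6) and the young lines (8, 9 and 10) share no replicate number. The count of DE genes rests on the spread that E14 retina and old DMC lend to the fit and on single lines. It was 943 (345 up, 598 down), 71 (20 up, 51 down) with the 9 DMC lines, 0 (0 up, 0 down) with the 6 libraries compared, where the smallest limma adjusted p was 0.0678 and 2776 genes had an unadjusted p under 0.05, and 1967 (870 up, 1097 down) with the 5 libraries other than DMC5, a fit chosen after seeing the data. Leaving out each line in turn gave 121 to 3468 DE genes, 40 to 1596 up and 81 to 1872 down, lowest without DMC10 and highest without DMC5. The deposited values as they stand gave 181 upregulated genes of 765. The other 10 alternatives gave 798 to 954 DE genes. Of the 101 named DE genes none reversed under any alternative, and 101 were called with median-of-ratios scaling, 94 without TMM factors, 85 with voom weights and 81 in the deposited values. Among named genes that were not called, the sign reversed for CDKN2A without DMC5 (0.47 in both such fits, -2.12 to 0.47 without each line), HINTW (-5.80 to 1.31), E2F1 (-1.48 to 0.010) and E2F3 (0.072 as deposited, 0.16 without TMM factors, 0.013 with median-of-ratios, -0.23 to 0.089 without each line). RB1 reversed too (-0.047 as deposited, -0.025 without DMC5 in both such fits, -0.025 to 0.40 without each line). The cause of these changes was not tested. Genes of few reads, such as GNAT1 and C1QC, have folds limited by depth.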

Other observations

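Chromosomes were compared over genes with a mean normalized count of at least 100 in the 6 lines, for 29 chromosomes with at least 100 such genes each, 9315 genes in all. The values are medians of the log2 difference from the young mean, given with no test, and chromosomes are those of the RefSeq annotation. Genes on chromosome Z (436) stood at 0.19 in DMC4, 0.39 in DMC5 and 0.22 in DMC6, next to 0.25 in DMC8 and 0.20 in DMC9. DMC10, the young line with reads of chromosome W genes, stood at -0.43, and the old lines DMC1, DMC2 and DMC3, which also have such reads, at -0.25, -0.33 and -0.26. Among these 436 Z genes 19 were upregulated and 12 downregulated in T58A DMC (7.11%). Of all genes tested, at any level, 6.17% were DE, 2.26% up and 3.91% down. On Z rises thus outnumbered falls, while over all genes falls outnumbered rises. The named genes CA9, KCNV2, PDE6B, RAX, PSAT1, MCTP1, GRIN3A, FBN2 and FOXD1 are on this chromosome. All autosomes stood between -0.25 and 0.22 in the 3 T58A lines, but for chromosome 34 (121 genes) in DMC4, at -0.56, against -0.12 in DMC6 and 0.10 in DMC5. Chromosome 28 (196 genes) was at -0.45 in the old line DMC2 and chromosome 27 (166 genes) at 0.37 in the old line DMC1, while both stood at -0.25 to 0.078 in the T58A lines.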
